A study of Homo sapiens with 6 samples.

Results

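RBPJ and 9 further genes of the Notch pathway (JAG1, JAG2, NOTCH1, NOTCH2, NOTCH3, MAML1, MAML2, HES1 and HEY1) were followed across 3 human glioblastoma cell lines transfected with miR-338-5p or with a negative control. The genes were taken by symbol, and each was read from the brightest probe set annotated to it over the 6 arrays, which gave 10 genes of the 13814 tested. The mean level was the only measured value that chose a probe set, but the pathway was picked with earlier results of these arrays known, and RBPJ gives it its name. Its response to the mimic is therefore given as values, with no test. All 10 genes passed the filter on low values, which left out the lowest 25% of genes (mean level under 4.28, log2).

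A172, T98G and U87MG are established lines derived from glioblastoma, a malignant brain tumour, and the labels name ATCC as their origin. RNA was measured 24 hours after transfection on Affymetrix Human Gene 1.0 ST arrays, with 1 array of the negative control and 1 array of pre-miR338-5p (the mimic) in each line, so that each group holds 3 arrays, 1 per line. The lines carry no further treatment, no untransfected array was analysed here, and the labels do not say whether an array came from 1 culture or several. All levels are log2 values after RMA, the authors' background correction, quantile normalization and summary of probes, so a difference of 1 is a 2-fold change.

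The Notch pathway passes signals between neighbouring cells. Ligands such as JAG1 and JAG2 on one cell bind NOTCH receptors on the next, the receptor is cut by ADAM proteases and then by gamma-secretase, and its freed intracellular part enters the nucleus. There it joins the DNA-binding protein RBPJ and a Mastermind coactivator (MAML1 or MAML2), and genes such as HES1 and HEY1, which encode transcriptional repressors, are switched on; without the receptor, RBPJ holds corepressors at the same genes. The pathway is known for keeping neural stem and progenitor cells undifferentiated, and it is active in many gliomas.

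The transfected microRNA is shown because its seed decides which messenger RNAs it can pair with. The sequence is RefSeq's mature form (GRCh38.p14, chr17:81125923-81125944, minus strand), with bases 2 to 8, the seed, in capitals; 0 other mature microRNAs in the table share it.
hsa-miR-338-5p: aACAAUAUccuggugcugagug

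RBPJ binds DNA at the core motif TGGGAA. Promoter sequences of RefSeq (GRCh38.p14), from 250 bases before to 50 bases after each start site, matched 9 of the 10 genes and gave 13 promoters, since RBPJ has 5. HEY1 had no matching promoter sequence, so its promoter was not searched. The motif, searched on both strands, was found in 2 of the 13, against 24.0% of all 35116 promoters of this length. They were the HES1 promoter and the second RBPJ promoter in genome order, each with 2 matches, and all 4 are shown, since HES1 is the textbook target of RBPJ. Each line gives 30 bases on the gene's strand with the motif in capitals. The HES1 stretches lie at chr3:194136052-194136081 and chr3:194136066-194136095, overlap each other, and hold the motif from 84 and from 70 bases before the start site.
HES1 first match: tgaaagttactgTGGGAAagaaagtttggg
HES1 second match: ggaaagaaagttTGGGAAgtttcacacgag
The RBPJ stretches lie at chr4:26319619-26319648, where the motif is on the opposite strand and reads as its reverse complement, and at chr4:26319662-26319691. They begin 127 and 84 bases before that start site.
RBPJ first match: ggtttaggaaatTTCCCAcggccgtgttgt
RBPJ second match: agtggaaggcggTGGGAAggaggtgtagcg
These matches describe the letters and were not tested as binding sites.

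The arrays were alike in scale, with medians from 5.06 to 5.14. Over probe sets, Pearson's r was 0.992 to 0.993 for a pair of arrays of 1 line and 0.954 to 0.962 for arrays of unlike lines. PPP2R5A, NDFIP1 and RHEB, believed to be the targets named by the study, stood lower with the mimic in every line, by means from -1.57 to -0.93. They were picked as known responders, so their direction is no independent check of the mimic. Of 11 glial and neural progenitor markers, VIM and CD44 were bright on every array (11.48 to 12.65) and GFAP, the defining filament of astrocytes, lay between 5.07 and 5.39. S100B, FABP7 and AQP4 stayed below the filter level on all 6 arrays. Of 5 measured markers each, 1 leukocyte (CD3E), 2 endothelial (PECAM1 and VWF), 0 epithelial and 0 neuronal markers were below it on all arrays. CD68, a lysosomal protein also used as a macrophage marker, read 8.29 to 10.40, TEK reached 6.28 in A172 and KDR 5.89 in U87MG, and the neuronal SNAP25 reached 8.11 in U87MG and MAP2 7.31 in T98G. The mean of 5 epithelial markers was 7.07 and 7.18 on the A172 arrays, against 5.47 to 5.65 in the other lines, with KRT8 at 10.41 and 10.49 in A172 and CDH1 at most 4.35 on any array. The means of the other sets were 6.11 to 6.38 (glial and neural progenitor), 4.70 to 5.08 (leukocyte), 3.80 to 4.50 (endothelial) and 4.90 to 5.67 (neuronal). The part of any of these markers in the line differences below was not tested.

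With the mimic, RBPJ and JAG1 stood higher than the control in every line, by means of 0.67 and 0.45 on the log2 scale, while HES1 was slightly lower in every line and HEY1 slightly higher. Of the 9 genes other than RBPJ, 0 passed an adjusted p under 0.05 in limma, against 1.11% of all genes in either direction (0.319% higher and 0.789% lower), and 3 (JAG1, JAG2 and HEY1) had an unadjusted p under 0.05 in the same limma fit, against 11.8% of all genes. The median difference was 0.06 over the 10 genes, RBPJ included, and 0.00680 over all tested genes.

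**Figure D1:**
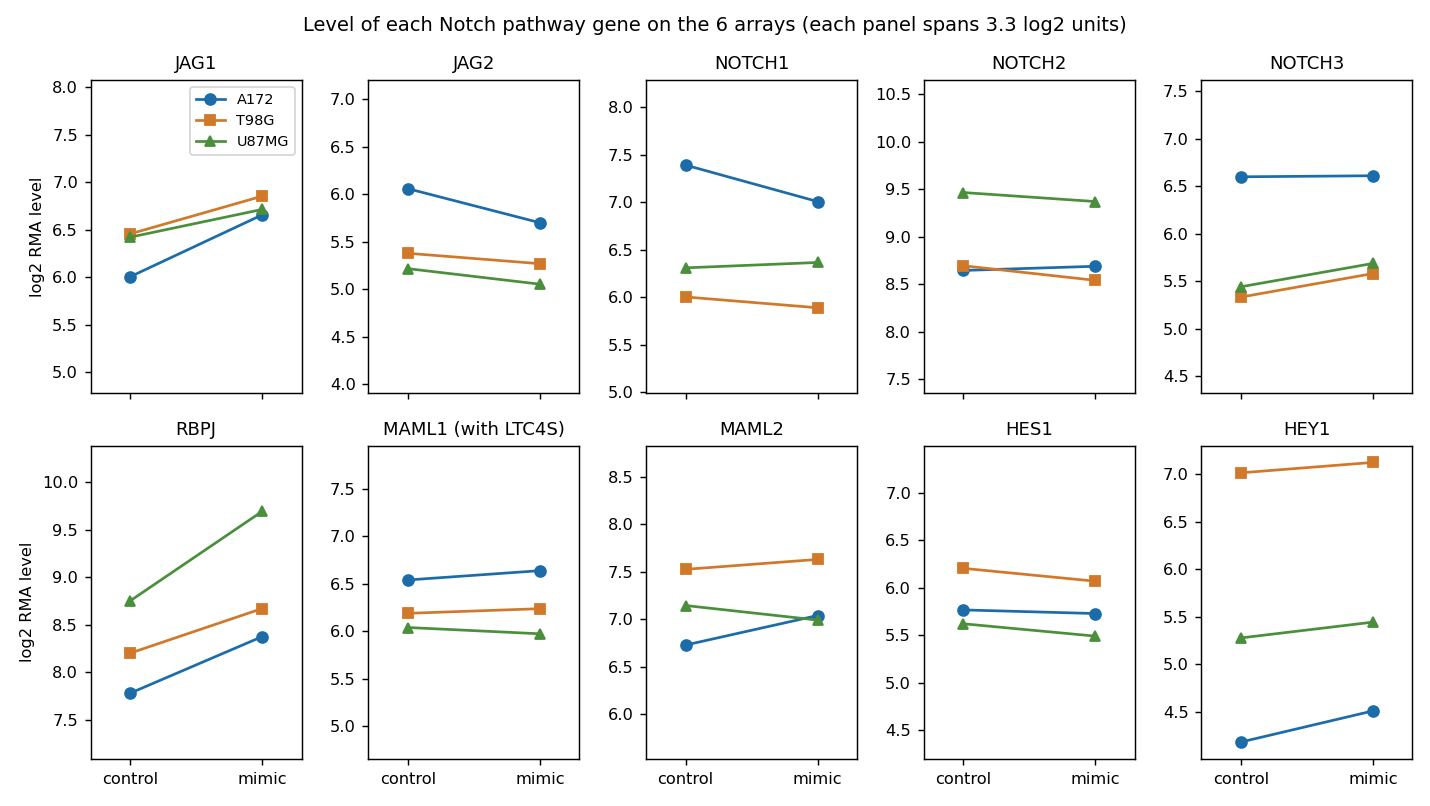
Level (log2 RMA, vertical axis) of each gene on the control and the mimic array of A172, T98G and U87MG, with a line joining the 2 arrays of a cell line and the same span of 3.3 log2 units in every panel. RBPJ and JAG1 slope upward in all 3 lines, whereas the lines of HEY1 are mainly set apart by cell line. In NOTCH3, A172 stands above T98G and U87MG, which lie close together.

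JAG1, a ligand presented by the sending cell, read 6.01 in the A172 control and 6.66 with the mimic. It read 6.46 and 6.86 in T98G, and 6.42 and 6.72 in U87MG, control first. All 3 mimic arrays lay above all 3 control arrays, which makes JAG1 the only one of the 10 genes whose groups did not overlap; 2.96% of all genes were separated in this way. The difference was widest in A172 (0.65) and smaller in T98G (0.40) and U87MG (0.29), with a mean of 0.45 ± 0.18 (SD, n = 3), or 1.36-fold. It did not pass over all genes (limma, adjusted p = 0.105). JAG1 did pass when the filter took away the lower 50% of genes (adjusted p = 0.0291) and when limma's variance prior followed expression (0.0302), within a range from 0.0291 to 0.9999 over the 10 alternatives.

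JAG2, the second Jagged ligand, went the other way. Its values were 6.06 and 5.70 in A172, 5.38 and 5.27 in T98G, and 5.22 and 5.05 in U87MG, control first. It was lower in 3 of 3 lines, by a mean difference of -0.21 ± 0.13 (SD, n = 3; limma, adjusted p = 0.384). The groups overlapped: both A172 arrays stood above those of the other lines, and the T98G mimic array lay above the U87MG control.

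Among the receptors, differences between mimic and control were small and unlike between lines. NOTCH1 read 7.39 and 7.01 in A172, 6.005 and 5.89 in T98G and 6.31 and 6.37 in U87MG, so its difference ran from -0.38 in A172 to 0.06 in U87MG (mean -0.15 ± 0.22, SD, n = 3; limma, adjusted p = 0.638). NOTCH2 read 8.65 and 8.69 in A172, 8.69 and 8.54 in T98G and 9.47 and 9.37 in U87MG, a mean difference of -0.07 ± 0.10 (SD, n = 3; limma, adjusted p = 0.789). A second NOTCH2 probe set, also annotated to the near-identical copies NOTCH2NLA and NOTCH2NLB, read 8.22 and 8.26 in A172, 8.03 and 8.03 in T98G and 8.40 and 8.38 in U87MG. NOTCH3 read 6.60 and 6.61 in A172, 5.33 and 5.58 in T98G and 5.44 and 5.69 in U87MG. It was higher in 3 of 3 lines, by 0.01, 0.25 and 0.25 in that order (mean 0.17 ± 0.14, SD, n = 3; limma, adjusted p = 0.496). In all 3 receptors the control and mimic arrays overlapped.

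RBPJ, the DNA-binding centre of the pathway, read 7.78 in the A172 control and 8.37 with the mimic, 8.20 and 8.67 in T98G, and 8.75 and 9.69 in U87MG. The mimic array was the higher one in each line, yet the groups overlapped, since the mimic arrays of A172 and T98G lay below the U87MG control. The difference was widest in U87MG (0.94) and smaller in A172 (0.60) and T98G (0.47), with a mean of 0.67 ± 0.24 (SD, n = 3), or 1.59-fold, the 22nd highest of all tested genes. The 2 lines farthest apart in response thus differed by 0.47, a difference that could not be tested with 1 array per line and group. A second, much dimmer RBPJ probe set (4.62 on average) was also higher with the mimic in every line: it read 4.01 and 4.51 in A172, 3.97 and 4.80 in T98G and 5.08 and 5.35 in U87MG. Its controls in A172 and T98G lay below the filter level, so the size of those differences is uncertain.

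The Mastermind coactivators showed no common direction. MAML1 was read from a probe set that is also annotated to LTC4S, so the 2 genes cannot be told apart there; it gave 6.54 and 6.64 in A172, 6.19 and 6.24 in T98G and 6.04 and 5.97 in U87MG (mean difference 0.03 ± 0.08, SD, n = 3; limma, adjusted p = 0.925). MAML2 read 6.73 and 7.04 in A172, 7.52 and 7.63 in T98G and 7.14 and 6.99 in U87MG. Its difference ran from 0.31 in A172 through 0.10 in T98G to -0.15 in U87MG (mean 0.09 ± 0.23, SD, n = 3; limma, adjusted p = 0.796). Without A172 the mean difference turned negative in both genes, to -0.01 in MAML1 and -0.02 in MAML2.

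The target genes among the 10, HES1 and HEY1, stayed close to their controls. HES1, a repressor that also acts on its own gene, read 5.77 and 5.73 in A172, 6.21 and 6.07 in T98G and 5.62 and 5.49 in U87MG. It was lower in 3 of 3 lines, by a mean difference of -0.10 ± 0.05 (SD, n = 3; limma, adjusted p = 0.652), the narrowest spread over the lines among the 10 genes. HEY1, a related repressor, read 4.18 and 4.51 in A172, 7.02 and 7.13 in T98G and 5.28 and 5.44 in U87MG. It was higher in 3 of 3 lines, by 0.20 ± 0.11 (SD, n = 3; limma, adjusted p = 0.39). Its largest difference, 0.33 in A172, started from a control below the filter level, so that its size is uncertain.

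**Figure D2:**
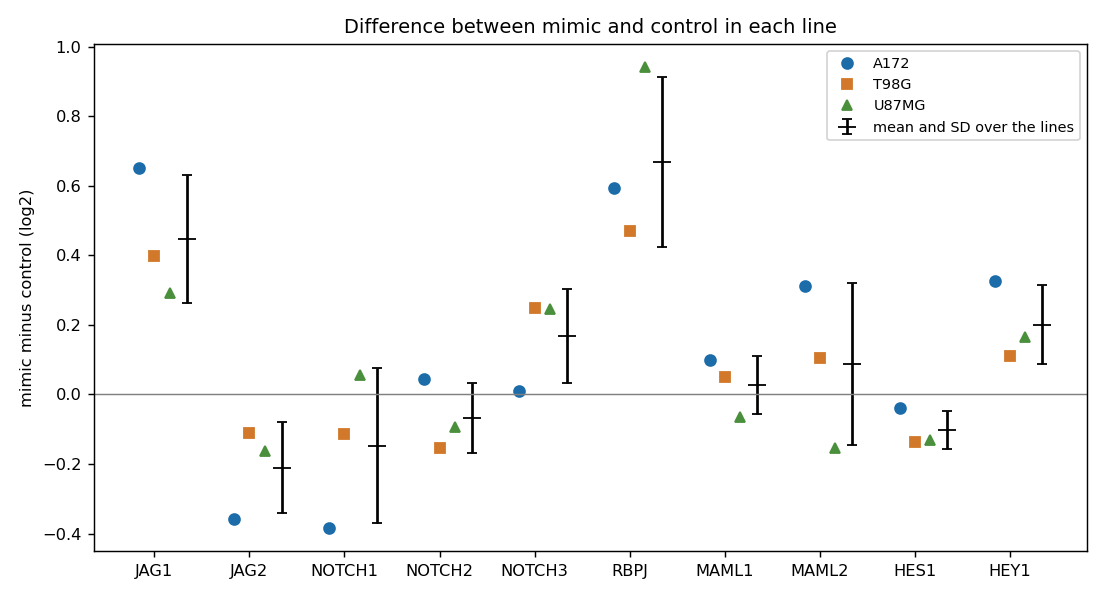
Mimic minus control (log2, vertical axis) for each gene, with 1 point per cell line and a black bar for the mean with the SD over the 3 lines. RBPJ (0.47 to 0.94) and JAG1 (0.29 to 0.65) lie above 0 in every line, and MAML2 runs from 0.31 in A172 to -0.15 in U87MG.

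Counted over the 10 genes, 4 (RBPJ, NOTCH3, JAG1 and HEY1) were higher in all 3 lines, 2 (JAG2 and HES1) lower in all 3, and 4 mixed; among all genes 18.5% were higher and 15.8% lower in all 3 lines. At a difference of at least 0.5 within a line, which carries no test with 1 array per group, A172 had 2 of the 10 genes (RBPJ and JAG1; 3.68% of all genes). T98G had 0 (3.71% of all genes), and U87MG had 1, RBPJ (3.22% of all genes). RBPJ may have been picked on this contrast, so its part in these counts is a description only. With RBPJ set aside, JAG1 in A172 was the only gene at 0.5 or more.

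The range between line means was wider than the mean difference with the mimic in each of these genes except JAG1 (0.32 against 0.45). NOTCH1, NOTCH3, JAG2 and MAML1 were highest in A172, HEY1, HES1 and MAML2 in T98G, and RBPJ and NOTCH2 in U87MG; in each of these 9 genes that line was above each of the others at an adjusted p under 0.05 in limma. Over all tested genes 40.2% had such a line. The lines were compared with the 2 arrays of each line and the treatment as an additive term. The p-values therefore rest on how unlike the mimic minus control differences were between lines, moderated by limma's variance prior. They do not measure a spread between independent cultures. In whole-culture RNA, fewer cells expressing a gene and less RNA per cell cannot be told apart.

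In limma's F test over the lines 9 of the 10 genes passed, against 67.5% of all genes. T98G and A172 differed in 7 of the 10 (50.5% of all genes), U87MG and A172 in 7 (54.2%), and U87MG and T98G in 6 (47.1%). The median range between line means was 0.77 over the 10 genes, 0.70 over the wider pathway list and 0.54 over all tested genes.

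HEY1 had the widest range of the 10, with line means of 4.35 in A172, 5.36 in U87MG and 7.07 in T98G. T98G was above A172 by 2.73 (standard error 0.10; limma, adjusted p = 3.18e-06), or 6.62-fold, and above U87MG by 3.27-fold (adjusted p = 2.11e-05). U87MG was above A172 by 1.02 (adjusted p = 0.0002), and since A172 lay near the filter level the differences from it may be understated. HES1 followed the same highest line with a narrower range: its mean was 6.14 in T98G, 5.75 in A172 and 5.56 in U87MG. T98G was above A172 by 0.39 (limma, adjusted p = 0.0103) and above U87MG (U87MG minus T98G was -0.58, adjusted p = 0.00197). U87MG minus A172 was -0.19 (standard error 0.09) and did not pass (limma, adjusted p = 0.112).

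NOTCH1 and NOTCH3 had the same order of lines, highest in A172 and lowest in T98G, and NOTCH2 another, highest in U87MG. NOTCH1 averaged 7.20 in A172, 6.34 in U87MG and 5.95 in T98G, with each step past the threshold in limma (adjusted p from 0.00024 to 0.0371). The step between U87MG and T98G, 0.39, was lost without the treatment term (adjusted p = 0.0564), with no filter (0.0571) and with arrays centred on their medians (0.0539), in a range from 0.0172 to 0.0571 over 8 alternatives. NOTCH3 averaged 6.60 in A172, against 5.56 in U87MG and 5.45 in T98G. A172 was 2.22-fold above T98G and 2.06-fold above U87MG (limma, adjusted p = 0.000154 and 0.00022). The difference within the lower pair (0.11) did not pass (limma, adjusted p = 0.428). NOTCH2 averaged 9.42 in U87MG, 8.67 in A172 and 8.62 in T98G. U87MG was 1.68-fold above A172 and 1.74-fold above T98G (limma, adjusted p = 0.000717 and 0.000627). The difference between A172 and T98G (-0.05) did not pass (limma, adjusted p = 0.701). On the second NOTCH2 probe set, shared with NOTCH2NLA and NOTCH2NLB, U87MG was again highest but the lines lay closer together. It read 8.40 and 8.38 in U87MG, 8.22 and 8.26 in A172, and 8.03 and 8.03 in T98G.

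Of the ligands, JAG2 had a mean of 5.88 in A172, above 5.32 in T98G and 5.14 in U87MG. The A172 mean was above T98G by 1.47-fold and above U87MG by 1.68-fold (limma, adjusted p = 0.00373 and 0.000952). The difference within the lower pair (-0.19) did not pass (limma, adjusted p = 0.17). JAG1 averaged 6.33 in A172, 6.57 in U87MG and 6.66 in T98G and did not pass the F test (limma, adjusted p = 0.0827). Its widest difference, T98G above A172 by 0.32 (standard error 0.11), stood at the threshold (limma, adjusted p = 0.05005) and passed in 4 of 8 alternatives. Of the coactivators, MAML2 averaged 7.58 in T98G, 7.07 in U87MG and 6.88 in A172. T98G was 1.62-fold above A172 (limma, adjusted p = 0.00374) and 1.42-fold above U87MG (0.0151). The difference between U87MG and A172 (0.18) did not pass (limma, adjusted p = 0.255). MAML1 averaged 6.59 in A172, 6.21 in T98G and 6.01 in U87MG, with A172 1.298-fold above T98G (limma, adjusted p = 0.0139) and 1.498-fold above U87MG (0.00199). The difference between T98G and U87MG, -0.21 (standard error 0.09), did not pass (limma, adjusted p = 0.112). The step from A172 to T98G was lost when the probe sets were averaged (0.056, in a range from 0.00511 to 0.056).

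RBPJ averaged 8.08 in A172, 8.43 in T98G and 9.22 in U87MG. U87MG was above A172 by 1.15 (standard error 0.13; limma, adjusted p = 0.000419), or 2.21-fold, and above T98G by 0.79 (0.00267), or 1.73-fold. The latter did not pass without the treatment term (0.0992), the only failure in 8 alternatives (lowest 6.3e-05). The difference between A172 and T98G, 0.36 (standard error 0.13), did not pass in the full fit (limma, adjusted p = 0.0559). It passed in 3 of 8 alternatives (0.0123 to 0.421). These line means hold control and mimic arrays alike, and the RBPJ difference with the mimic was widest in U87MG. On the control arrays alone RBPJ read 7.78 in A172, 8.20 in T98G and 8.75 in U87MG.

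**Figure D3:**
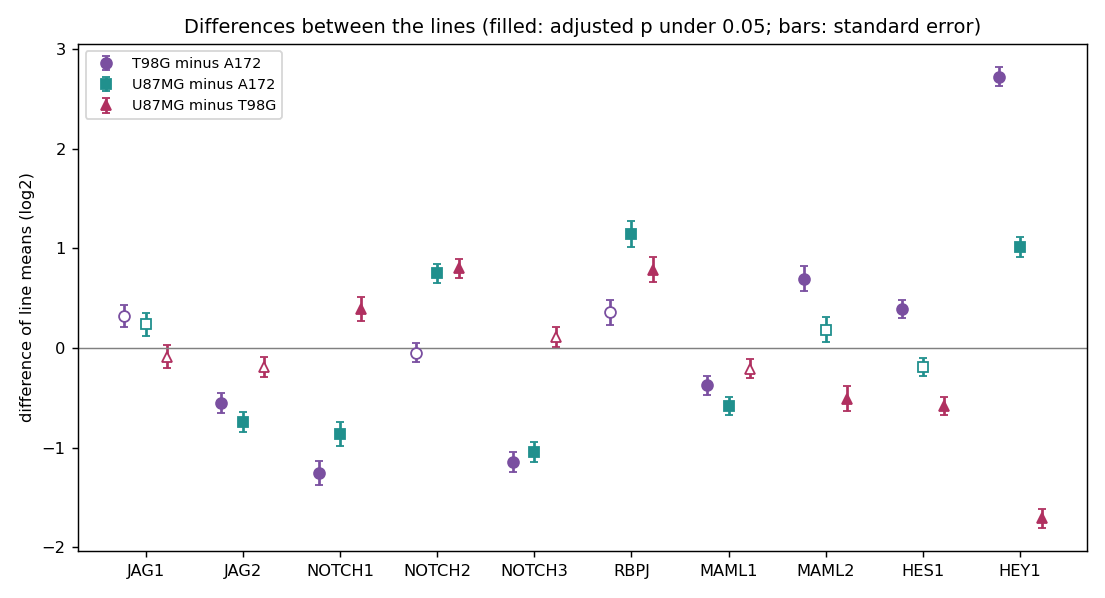
Difference between line means (log2, vertical axis) for each gene and each pair of lines, with the standard error as bars; filled symbols passed an adjusted p under 0.05. HEY1 has the widest differences (2.73 between T98G and A172, -1.71 between U87MG and T98G), and JAG1 has no filled symbol.

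The rest of the pathway was read from a list of 86 genes by role, of which 78 were tested, 2 lay below the filter (DLL3 and MAML3) and 6 had no probe set with that 1 symbol. Of the 77 tested genes other than RBPJ, 1 passed with the mimic, KAT2B, which was lower. Of all genes, 1.11% were called in either direction and 0.789% lower. The list was written with earlier results of these arrays known. KAT2B, an acetyltransferase that serves as a coactivator of the Notch complex, fell from 7.98 to 7.14 in A172, from 6.70 to 5.67 in T98G and from 8.03 to 6.98 in U87MG. The groups overlapped because T98G was low on both arrays, while the drop was alike in the 3 lines (mean -0.97 ± 0.11, SD, n = 3; limma, adjusted p = 0.0074). It did not pass without U87MG, where the mean was -0.93 (adjusted p = 0.109), nor without the cell line in the model, and passed in 8 of 10 alternatives (9.12e-05 to 0.9999). The median difference of these 77 genes was 0.02, against 0.00680 over all genes. In all 3 lines 19 of them were higher (24.7%, against 18.5% of all genes) and 10 lower (13.0%, against 15.8%).

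By role, 0 of 4 receptors, 7 ligands, 8 genes of receptor cleavage, 5 of receptor glycosylation, 14 of endocytosis and ubiquitin, 14 nuclear corepressors and 17 targets passed. At an unadjusted limma p under 0.05 they held 0, 2, 1, 1, 2, 1 and 3 genes in that order, and the 8 nuclear coactivators other than RBPJ held 2. Together these were 12 of the 77 genes (15.6%), against 11.8% of all genes. After KAT2B, the smallest p outside the 10 genes belonged to CCNC, HEY2, MIB1 and CCND1. CCNC, the cyclin of the Mediator kinase that marks the active Notch receptor for degradation, read 7.66 and 8.16 in A172, 8.23 and 8.45 in T98G and 8.16 and 8.60 in U87MG (mean difference 0.39, limma, adjusted p = 0.129). HEY2, the sister gene of HEY1, was lower in 3 of 3 lines where HEY1 was higher, at 4.19 and 3.89 in A172, 6.07 and 5.56 in T98G and 5.70 and 5.48 in U87MG (mean -0.34, limma, adjusted p = 0.166). Its A172 arrays were both below the filter level. MIB1, a ubiquitin ligase that readies ligands for signalling, differed by 0.25 (limma, adjusted p = 0.282) and CCND1, a cyclin of the G1 phase, by -0.30 (0.317). By the mean over the lines, the highest and lowest target genes of the list were HEY1 and HEY2, at 0.20 and -0.34. Single lines could differ more than these means.

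**Figure D4:**
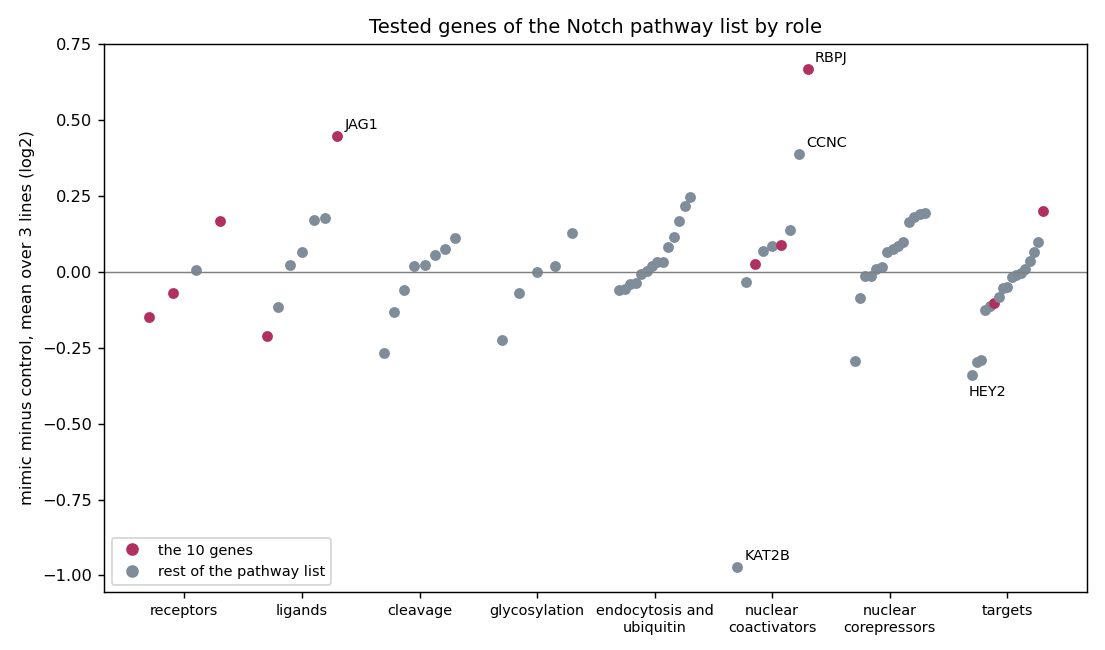
Mimic minus control (mean over the 3 lines, log2, vertical axis) for the 78 tested genes of the pathway list, grouped by role, with the 10 genes in red. RBPJ at 0.67 and KAT2B at -0.97 stand at the ends of the coactivators, and the other groups lie between -0.34 and 0.45.

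Between the lines, 59 of the 78 listed genes passed limma's F test (75.6%, against 67.5% of all genes). The largest range outside the 10 genes was that of DNER, a neuronal ligand of Notch receptors, which read 8.30 and 8.07 in A172, 5.68 and 5.45 in T98G and 9.50 and 9.62 in U87MG. TLE4, a Groucho corepressor recruited by HES proteins, was highest in A172 (10.63 and 10.68), lower in T98G (8.78 and 8.97) and lowest in U87MG (6.72 and 6.78). CCND1 was lowest in T98G (8.86 and 8.39, against 10.03 to 10.88 in the other lines), and so was NUMB, an inhibitor of Notch receptors, at 6.96 and 6.87, against 7.52 to 9.11. GMPR, an enzyme of purine metabolism, was lowest in U87MG (4.53 and 4.15), and HEY2 in A172 (4.19 and 3.89). Each pair of lines differed at an adjusted p under 0.05 in limma in DNER, TLE4, CCND1, NUMB and GMPR; in HEY2 T98G and U87MG did not (-0.23, adjusted p = 0.12).

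The genes whose levels were most like RBPJ over the 6 arrays were PNRC2 (Pearson r = 0.997), POLI (0.991), EIF3A (0.988), SKI (0.987) and PAXIP1 (0.983). PNRC2, an adaptor of mRNA decapping, read 9.30 and 9.66 in A172, 9.56 and 9.86 in T98G and 9.87 and 10.35 in U87MG, so that it had the same order of arrays as RBPJ. For HES1 they were P4HA1 (r = 0.995), CEP131 (0.995), BAG2 (0.995), DNAJA3 (0.994) and SUCLA2 (0.994). All of these were chosen as the highest r among the tested genes, and the 6 arrays share 3 lines, so the coefficients are descriptions of these arrays.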

How the data were processed

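The deposited table holds log2 values of 33297 probe sets on 6 arrays, which the authors made with RMA in the package oligo under R 3.0.1 per the submitters' processing notes. How arrays were filtered or batched is not stated there. The log2 values were used as deposited. The platform annotation named 1 gene for 19460 probe sets, several for 1754 and none listed here for 12083; 19429 of the first kind matched RefSeq (GRCh38.p14) by gene identifier. The brightest probe set per gene was kept, MAML1 was added from a probe set with 2 symbols, and the lowest 25% of genes were left out.

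Mimic and control were compared with limma 3.58.1 in R 4.3.3 (lmFit, eBayes, two-sided, Benjamini-Hochberg over 13814 genes) with the cell line as block, on 2 residual degrees of freedom (6.56 with those of the variance prior). The lines pair the arrays by label; deviations from group means correlated within a line with r from 0.951 to 0.958. Because quantile normalization forces arrays to 1 distribution, a shift of most genes would be largely removed. The number of arrays limits the precision. On simulated data for this comparison, 144 of 200 genes changed by 1 log2 were recovered, with 3 false calls.

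The members and lists were chosen with earlier results of these data known. Named genes were the 10 members, the 5 further listed genes of smallest p (which include each one past the threshold), the 6 of largest range between lines among those past the F test, the 5 genes most like RBPJ and HES1, and 3 known responders.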

Additional observations from a re-analysis of the deposited data

How the results depend on the processing

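The number of genes past the threshold for mimic minus control was 153. It was 0 without the replicate block (the cell line left out of the model), 60 with no filter, 360 without the lower 50% of genes and 473 when the variance prior followed expression. It ran from 0 to 117 when 1 line was left out. Of the pathway list 2 genes passed with RBPJ counted (nothing is read from its call, since it may have been picked on this contrast), against 0 without the replicate block, 1 with no filter, 4 with the lower 50% left out, 4 with the other variance prior, and 0 to 2 without 1 line. The RBPJ difference ran from 0.53 to 0.77 over 10 alternatives. The difference of MAML1 turned to -0.017 with probe sets averaged and ran from -0.00869 (without A172) to 0.0734 (without U87MG) when 1 line was left out; that of MAML2 ran from -0.0243 to 0.208 in the same order. The cause was not tested. Of 97 values of the 10 genes under the alternatives 88 kept direction and side of the threshold, and of 231 line differences 219 did, with 0 reversed. Counts of genes between lines stayed within 1.5 times. At a fold of 1 log2 within a line, A172 had 46 genes, T98G 40 and U87MG 36. With no filter, 785 genes of T98G and 720 of U87MG passed 0.5. HEY1 and HEY2 in A172 lay near or below the filter level.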
